A study of Arabidopsis thaliana with 24 samples.

Results

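Glutathione S-transferases (GSTs) of the tau, lambda, zeta and theta classes were followed over 8 genotypes of *Arabidopsis thaliana*. The genes were taken by class and locus identifier, not by any measured value: GSTU1 to GSTU28 (28 genes), GSTL1 to GSTL3 (3 genes), GSTZ1 and GSTZ2 (2 genes) and GSTT1 to GSTT3 (3 genes), that is 36 of the 33331 identifiers counted. Earlier results of these data were known when this set was chosen. All 36 were found, and 35 passed the filter on low counts, which kept 22089 genes. The gene left out was GSTU21 (AT1G78360), which had at most 0.236 CPM in any library (CPM, counts per 1000000 counts of a TMM-scaled library). A gene could pass through the genotype in which it was high, so the 35 are the genes with enough counts to test, not the whole set.

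RNA came from whole seedlings, 3 libraries per genotype, after 4 days of shaking with 3% sucrose in constant light (24 h a day), a treatment called anthocyanin inductive conditions (AIC). The genotypes were wild-type Col-0, *tt19-8*, which is a T-DNA insertion mutant of the phi-class GST gene *TT19* in Col-0, and 6 suppressor lines named S1, S2, S4, S5, S7 and S8. The lines arose by ethyl methanesulfonate treatment of *tt19-8* seed and make anthocyanin again without TT19. The gene hit was *RDR6* in 4 of them, by a stop codon in S1, S2 and S8 and by an amino acid exchange in S4. It was *SGS3* in S5 and *DCL4* in S7, both at a splice site, and every line still carried the *tt19-8* insertion and stood for 1 mutant isolate. RDR6, SGS3 and DCL4 are all required for the making of trans-acting small interfering RNAs. Other mutations from the same treatment, where a line carries them, cannot be told apart from the named one. Setting *tt19-8* against Col-0 asks what the loss of TT19 changes among the other GSTs, and setting each line against *tt19-8* asks what accompanies the return of pigment.

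GSTs join the tripeptide glutathione to electrophilic molecules or carry such molecules without joining them. The tau class is specific to plants, is the largest of the plant classes, and is known for detoxifying herbicides and other xenobiotics and for rising under chemical and hormone stress. Lambda GSTs act as thiol transferases and can bind flavonols, zeta GSTs isomerise maleylacetoacetate in tyrosine breakdown, and theta GSTs reduce organic hydroperoxides in peroxisomes. TT19, the enzyme missing here, belongs to the phi class and binds anthocyanins.

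The 24 libraries held 25.8 to 73.4 M counts each, and a gene with 3 counts, the limit used here for detection, would stand at 0.0408 to 0.116 CPM. The 36 genes together took 0.188% to 0.269% of the counts of a library. *TT19* (AT5G17220) itself stood at 125 to 133 CPM in Col-0, at 0.936 to 1.54 CPM in *tt19-8* and at 1.84 to 11.6 CPM in the lines. Replicate 3 of *tt19-8*, S2 and S8 stood apart from replicates 1 and 2: the summed level of 13 low-oxygen genes was 2578, 2514 and 11725 CPM in *tt19-8*, 2294, 2202 and 5289.5 in S2 and 3543, 3549 and 8874 in S8. In S7 replicate 3 was the low one, with 4122, 4507 and 1713 CPM, and so it was in Col-0, with 2305, 2189 and 1293. The same sum was 8022 to 8398 CPM in all libraries of S4 and 1249 to 1277 in S1. Markers of leaf, root and seed were all detected, with none at 0 counts in a library: 5 leaf genes summed to 227 to 255 CPM in Col-0, 204 to 244 in *tt19-8* and 363 to 466 in S7, 3 root genes to 42.96 to 70.5 in *tt19-8* and 16.5 to 26.4 in S7, and 5 seed-storage and late-embryo genes to 401 to 413 in Col-0, 1345 to 1579 in *tt19-8* and 5404 to 5693 in S1. Replicate 3 also departed in its seed genes in S2 (1593.5, 1612 and 5594 CPM in replicates 1, 2 and 3), S5 (2239, 2342 and 1138) and S7 (618, 601 and 1093). Its root genes were above those of replicates 1 and 2 in Col-0 (23.5, 23.0 and 46.6 CPM) and S7, and below them in *tt19-8*, S2 and S8. The part of these in the results was not tested. In whole seedlings, fewer cells of a type and less RNA per cell cannot be told apart. No label states that replicates came from separate cultures, so that p-values measure the spread between these libraries, which may be technical.

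The members spanned a wide range of abundance. Per kilobase of exon, *GSTU19* (AT1G78380) was the most abundant at 576 CPM per kb over the 24 libraries, followed by *GSTZ1* (AT2G02390) at 262, *GSTL3* (AT5G02790) at 207 and *GSTT1* (AT5G41210) at 106 CPM per kb, so that each of the 4 classes was represented among the first 4. The other members ran from 72.1 CPM per kb for *GSTU17* down to 1.71 for *GSTU23*, and *GSTU15* and *GSTU21* lay lower still, at 0.181 and 0.0841. *GSTU15* (AT1G59670) was at 0.0272 to 0.424 CPM, close to the limit of detection, and was called in no comparison. The ratio of the highest to the lowest genotype mean of CPM ran from 1.33 for *GSTT3* to 18.4 for *GSTU12*, and *GSTU11* came next with 9.65. The 3 theta genes had the 3 smallest ratios.

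**Figure D1:**
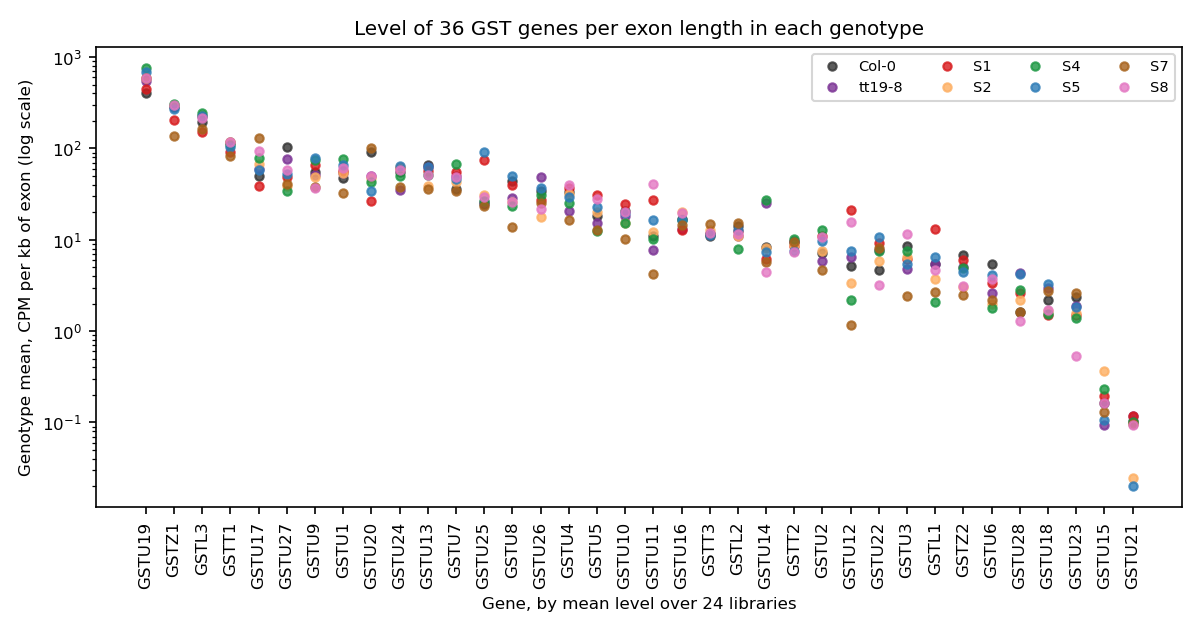
Mean level of the 36 GST genes in each genotype (n = 3 libraries), in CPM per kilobase of exon on a log axis, with genes ordered by their mean over 24 libraries and 1 colour per genotype. *GSTU19* leads with 576 CPM per kb, *GSTU15* and *GSTU21* end the order, and the spread between genotypes is widest for *GSTU12* and *GSTU11*.

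A gene was called when its adjusted p was under 0.05 (edgeR quasi-likelihood F test, Benjamini-Hochberg over the 22089 genes), with 3 libraries per genotype. Differences are given as log2 fold changes ± their standard error, and each call was repeated under 12 alternatives: another normalisation, another test, no filter, only the 6 libraries compared, the replicate number as a block, 1 library left out at a time, and the 3 libraries that stood apart left out together. Over the 8 genotypes together, 34 of the 35 GST genes tested differed, all but *GSTU15*, where 79.9% of all genes did. In *tt19-8* against Col-0, 12 of the 35 tested were called, 5 higher and 7 lower, beside 13.6% of all genes. All 12 were tau genes, the class of 27 of the 35 tested. The others tested were 3 lambda, 2 zeta and 3 theta genes, too few for no call to stand out beside 13.6%. Without *tt19-8* replicate 3, 6 genes were called.

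Against *tt19-8*, S7 had the most calls among the lines, 21 of the 35 tested with 4 higher and 17 lower, where 37.3% of all genes were called and 19.2% were called lower. The median log2 fold change of the 35 genes in S7 was -0.44, and that of all genes tested was -0.00117. Without S7 replicate 3 there were 20 calls (4 higher, 16 lower). S1 had 19 calls (11 higher, 8 lower) beside 34%, S8 had 16 (8 higher, 8 lower) beside 25.6%, S5 had 13 (10 higher, 3 lower) beside 24.7%, S4 had 13 (8 higher, 5 lower) beside 18.7%, and S2 had 10 (4 higher, 6 lower) beside 19.1%. Lower calls outnumbered higher ones in S7 and S2, higher outnumbered lower in S1, S4 and S5, and S8 had as many of each. The count moved by over 1.5 times for 3 lines: in S4 it was 21 (11 higher, 10 lower) without replicate 3 of *tt19-8*, S2 and S8, in S5 it was 8 without S5 replicate 2, and in S2 it was 6 when the 6 libraries compared were fitted alone. The 6 comparisons share the *tt19-8* libraries, so that they are not independent of each other or of the comparison of *tt19-8* with Col-0.

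No member was called in the same direction in all 6 lines. *GSTU24* was called higher in 5 lines, where 1.95% of all genes were called higher in at least 5, and *GSTU14* and *GSTU27* were called lower in 5, where 2.12% of all genes were called lower in at least 5. Of the 35 genes, 10 were called higher only, 13 lower only and 10 higher in 1 or more lines and lower in others, and *GSTU6* and *GSTU15* were called in no line. These shares were not counted over all genes, of which 18.7% to 37.3% were called per line. The counts are thus not read as a trait of GST genes.

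**Figure D2:**
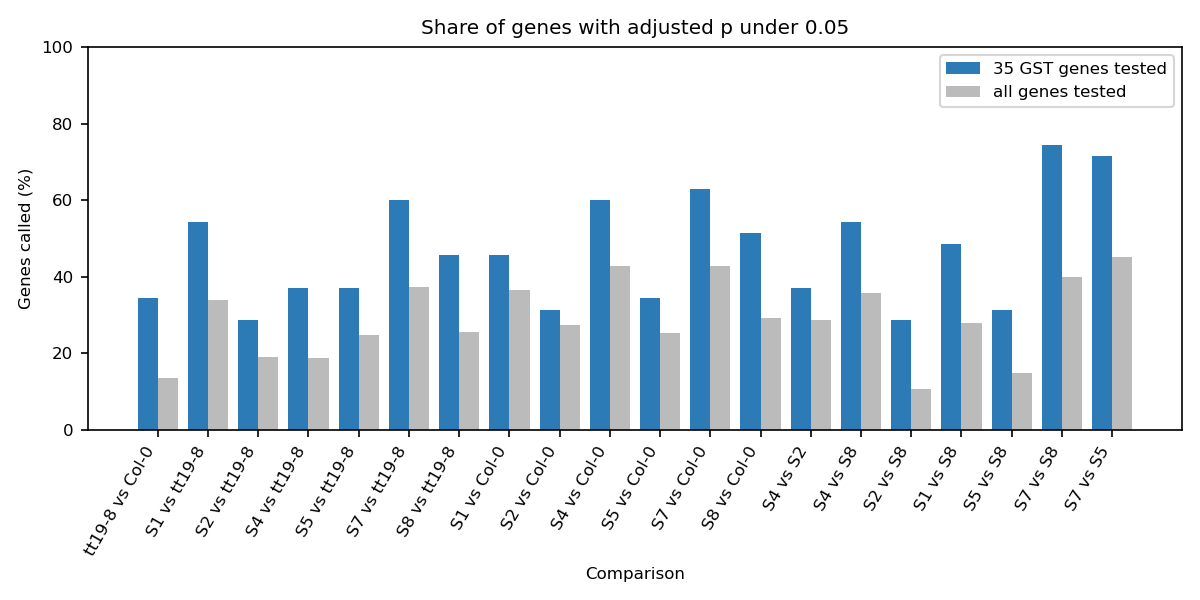
Share of genes called (adjusted p under 0.05, in percent, axis from 0 to 100) in each of 20 comparisons, for the 35 GST genes tested (blue) and for all 22089 genes tested (grey). In S7 against *tt19-8*, 21 of the 35 GST genes and 37.3% of all genes were called.

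**Figure D3:**
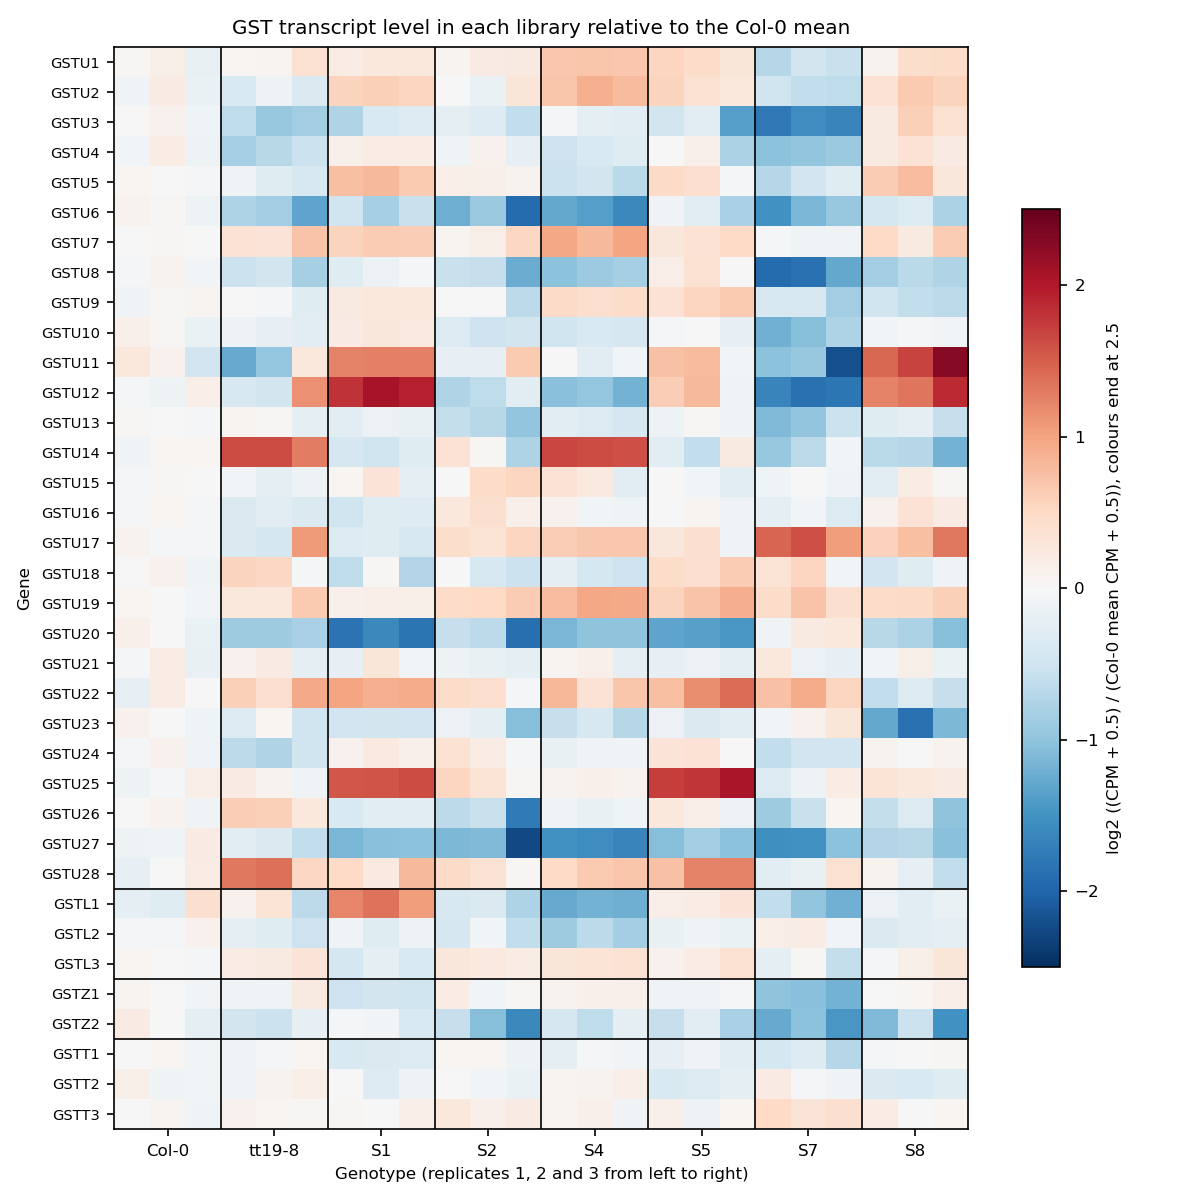
Level of each of the 36 GST genes in each of the 24 libraries, as log2 of CPM plus 0.5 relative to the Col-0 mean plus 0.5, with 3 columns per genotype (replicates 1, 2 and 3) and lines between the tau, lambda, zeta and theta genes. *GSTU14* is high in *tt19-8* and S4, *GSTU25* in S1 and S5, *GSTU11* and *GSTU12* in S1 and S8, and many tau genes are low in S7.

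Of the 35 genes tested, the one with the largest log2 fold change in *tt19-8* was *GSTU14* (AT1G27140, chromosome 1), a tau gene next to *GSTU13*. *GSTU14* stood at 7.66, 8.48 and 8.54 CPM in replicates 1, 2 and 3 of Col-0 and at 26.7, 26.6 and 20.7 in *tt19-8*. The level in *tt19-8* was 2.997-fold higher, with a log2 fold change of 1.58 ± 0.25 (adjusted p 0.000331), and no library of *tt19-8* overlapped with Col-0. The suppressor lines had CPM values of 6.01, 5.67 and 6.60 in S1, 10.7, 8.44 and 4.62 in S2, 27.4, 26.6 and 26.01 in S4, 6.79, 5.22 and 9.73 in S5, 4.05, 5.07 and 7.83 in S7 and 4.95, 4.82 and 3.34 in S8. S4 overlapped with *tt19-8*, and every library of the other 5 lines lay below every library of *tt19-8*. The log2 fold change against *tt19-8* was -2.02 ± 0.25 (adjusted p 4.72e-06) in S1, -1.64 ± 0.25 (adjusted p 0.000101) in S2 and -1.76 ± 0.25 (adjusted p 5.08e-05) in S5. It was -2.10 ± 0.26 (adjusted p 2.16e-06) in S7 and -2.50 ± 0.27 (adjusted p 1.19e-06) in S8, the largest fall of the set in that line. In S4 the log2 fold change was 0.11 ± 0.24 and was not past the threshold (adjusted p 0.784). Tested directly, for *GSTU14* S4 exceeded the other *RDR6* lines tested, S2 (log2 fold change 1.76 ± 0.25, adjusted p 3.14e-05) and S8 (log2 fold change 2.61 ± 0.27, adjusted p 3.38e-07). Against Col-0 it was called in S4, with 1.70 ± 0.25, and in S8, with -0.92 ± 0.26, and not in S1, S2, S5 or S7. The S8 call was lost in 1 of 12 alternatives (without S8 replicate 3), and over all 12 the log2 fold change ran from -1.02 to -0.75 with adjusted p up to 0.0787.

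*GSTU13* (AT1G27130), the neighbour of *GSTU14* and its closest relative in coding sequence (82.0% identity), is known for a part in the indole glucosinolate defence pathway. It stood at 81.05 to 85.1 CPM in Col-0 and at 70.5 to 87.9 in *tt19-8*, with overlapping groups. It fell in S2, where it stood at 55.3, 51.9 and 41.97 CPM (log2 fold change -0.71 ± 0.13, adjusted p 0.000468), and in S7, where it stood at 38.4, 41.8 and 57.7 CPM (log2 fold change -0.82 ± 0.13, adjusted p 3.31e-05). The rise of *GSTU14* in *tt19-8* was thus not called for the adjacent copy. The 250 bases before the start of the *GSTU14* gene model are shown because this gene had the largest log2 fold change in *tt19-8* (RefSeq TAIR10.1, plus strand, 5′ to 3′). TGACG, the core of the element bound by TGA transcription factors, was searched on both strands, that is also as CGTCA, and was not in this window.
GSTU14, chr1:9427554-9427803: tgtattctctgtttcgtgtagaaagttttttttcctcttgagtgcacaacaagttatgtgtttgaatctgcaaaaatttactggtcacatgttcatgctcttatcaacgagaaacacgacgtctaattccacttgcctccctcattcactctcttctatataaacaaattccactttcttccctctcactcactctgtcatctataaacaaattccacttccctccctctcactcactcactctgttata

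*GSTU24* (AT1G17170), *GSTU25* (AT1G17180) and *GSTU26* (AT1G17190) stand in a row on chromosome 1 and changed in 3 different ways. *GSTU24* and *GSTU25* are known for conjugating the explosive trinitrotoluene and for induction by xenobiotics. Their 3 upstream windows of 250 bases are shown to let these neighbours be compared (RefSeq TAIR10.1, all on the plus strand, 5′ to 3′), with TGACG on either strand in capitals. It was found once before *GSTU24*, with its first base 169 bases before the start, once before *GSTU25*, 87 bases before the start, and not before *GSTU26*. Over the 36 members, 12 windows (33.3%) held it, and of 28931 windows of all genes, 5339 (18.5%) did. A match is a run of letters and was not examined for binding.
GSTU24, chr1:5869293-5869542: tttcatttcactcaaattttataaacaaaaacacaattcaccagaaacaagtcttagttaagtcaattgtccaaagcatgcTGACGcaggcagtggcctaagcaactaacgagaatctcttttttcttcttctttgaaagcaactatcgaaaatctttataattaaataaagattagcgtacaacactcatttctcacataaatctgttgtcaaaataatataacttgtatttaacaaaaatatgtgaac
GSTU25, chr1:5871774-5872023: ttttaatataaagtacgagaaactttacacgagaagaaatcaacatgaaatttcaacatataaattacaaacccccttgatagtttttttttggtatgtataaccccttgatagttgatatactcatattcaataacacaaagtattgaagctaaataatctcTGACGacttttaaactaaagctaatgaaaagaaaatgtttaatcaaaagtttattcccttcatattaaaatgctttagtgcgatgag
GSTU26, chr1:5875045-5875294: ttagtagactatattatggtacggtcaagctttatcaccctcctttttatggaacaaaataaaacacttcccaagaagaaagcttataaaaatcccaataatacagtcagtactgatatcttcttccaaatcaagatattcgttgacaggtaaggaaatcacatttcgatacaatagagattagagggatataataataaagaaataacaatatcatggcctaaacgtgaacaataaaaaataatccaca

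*GSTU24* was lower in *tt19-8* and higher again in 5 lines. *GSTU24* stood at 64.9, 70.9 and 62.6 CPM in replicates 1, 2 and 3 of Col-0 and at 41.7, 39.04 and 46.6 in *tt19-8*. The difference was -0.64 ± 0.10 (adjusted p 0.00025) on the log2 scale, without overlap. In the lines, it was measured in CPM at 71.1, 78.4 and 72.7 in S1, 86.1, 75.7 and 64.8 in S2, 57.9, 61.8 and 61.8 in S4, 82.4, 84.6 and 66.9 in S5, 42.7, 47.6 and 47.5 in S7 and 70.4, 66.3 and 70.6 in S8. Every library of S1, S2, S4, S5 and S8 lay above every library of *tt19-8*, and S7 overlapped with it. The log2 fold change against *tt19-8* was 0.80 ± 0.10 (adjusted p 3.54e-06) in S1, 0.83 ± 0.10 (adjusted p 5.51e-06) in S2, 0.51 ± 0.10 (adjusted p 0.000958) in S4, 0.88 ± 0.10 (adjusted p 4.63e-06) in S5 and 0.70 ± 0.10 (adjusted p 2.36e-05) in S8, a rise of at most 1.84-fold. In S7 it was 0.11 ± 0.10 and was not past the threshold (adjusted p 0.379). Tested directly, *GSTU24* was lower in S7 than in S5 (log2 fold change -0.76 ± 0.10, adjusted p 2.40e-06) and than in S8 (log2 fold change -0.59 ± 0.10, adjusted p 6.36e-05).

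*GSTU25* was called higher than *tt19-8* in S1 and S5 and in no other line. *GSTU25* stood at 22.7, 24.2 and 28.1 CPM in replicates 1, 2 and 3 of Col-0 and at 29.03, 26.7 and 23.4 in *tt19-8*. Levels in CPM were 73.8, 75.6 and 78.4 in S1, 36.5, 32.003 and 25.6 in S2, 26.7, 27.4 and 26.7 in S4, 83.7, 87.9 and 105 in S5, 19.7, 22.7 and 28.5 in S7 and 31.7, 29.98 and 28.99 in S8. All libraries of S1 and S5 lay above all libraries of the other 6 genotypes, which spanned 19.7 to 36.5 CPM. Relative to *tt19-8* the level was 2.88-fold higher in S1, 1.53 ± 0.13 (adjusted p 5.15e-08) on the log2 scale, and 3.49-fold higher in S5, 1.80 ± 0.13 (adjusted p 2.59e-08). S1 is an *RDR6* nonsense line like S8, and the direct test gave 1.33 ± 0.13 (adjusted p 2.60e-07) for S1 against S8. S5 was above S8 (log2 fold change 1.61 ± 0.13, adjusted p 1.32e-07), and S7 below S5 (log2 fold change -1.96 ± 0.13, adjusted p 6.36e-10).

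*GSTU26* was lower than in *tt19-8* in 4 lines. It stood at 36.03, 38.4 and 34.1 CPM in Col-0, 56.05, 55.2 and 43.3 in *tt19-8*, 27.6, 29.7 and 30.1 in S1, 22.8, 24.3 and 10.3 in S2, 19.4, 24.5 and 37.6 in S7 and 23.6, 28.4 and 17.8 in S8. It fell against *tt19-8* in S1 (log2 fold change -0.82 ± 0.24, adjusted p 0.0103), in S2 (log2 fold change -1.43 ± 0.24, adjusted p 0.000298), in S7 (log2 fold change -0.91 ± 0.24, adjusted p 0.00469) and in S8 (log2 fold change -1.15 ± 0.24, adjusted p 0.00128). Replicate 3 of S2, at 10.3 CPM, was the lowest of all libraries. Its seed genes were at 5594 CPM in sum and its low-oxygen genes at 5289.5, both above replicates 1 and 2 of S2. Replicate 3 was the lowest library of *tt19-8* and S8 too, with low-oxygen genes at 11725 and 8874 CPM. The seed genes were at 1345 and 1755 CPM there. In S7 it was the highest, with low-oxygen genes at 1713 CPM, but in Col-0 it was the lowest, with these at 1293. The part of these genes was not tested. Without S2 replicate 3 the log2 fold change in S2 was -1.13 and still past the threshold. In S4, at 31.6 to 33.8 CPM, and in S5, at 32.7 to 43.4, it was not called against *tt19-8*. Within this row of 3 genes, S1, S2 and S8 were thus called higher for *GSTU24* and lower for *GSTU26*, and of these lines S1 was also called higher for *GSTU25*.

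*GSTU27* (AT3G43800, chromosome 3) was lower than in *tt19-8* in 5 lines and highest in Col-0. *GSTU27* stood at 98.8, 100.3 and 124 CPM in replicates 1, 2 and 3 of Col-0 and at 88.1, 84.3 and 70.7 in *tt19-8*. CPM values in the lines were 48.7, 52.1 and 52.4 in S1, 48.96, 50.1 and 22.1 in S2, 37.5, 36.3 and 34.2 in S4, 51.1, 59.04 and 52.7 in S5, 36.7, 37.3 and 52.6 in S7 and 64.9, 66.8 and 52.02 in S8. No library of a line reached the lowest value of *tt19-8*. The log2 fold change against *tt19-8* was -0.67 ± 0.20 (adjusted p 0.0136) in S1, -1.01 ± 0.20 (adjusted p 0.00147) in S2, -1.17 ± 0.20 (adjusted p 0.000384) in S4, -0.58 ± 0.20 (adjusted p 0.0395) in S5 and -0.94 ± 0.20 (adjusted p 0.00103) in S7. In S8 it was -0.40 ± 0.20 (adjusted p 0.149), and the gene was not called. The call in S5 was lost in 5 of 12 alternatives (without S5 replicate 1, 2 or 3, without *tt19-8* replicate 1 or 2), and over all 12 the log2 fold change ran from -0.67 to -0.52 with adjusted p up to 0.125. That in S2 was lost in 1 of 12 alternatives (with its 6 libraries alone), and over all 12 the log2 fold change ran from -1.19 to -0.71 with adjusted p up to 0.0914. Against Col-0 all 6 lines were called lower, from -0.82 in S8 to -1.58 in S4, whereas *tt19-8* itself was not called.

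*GSTU28* (AT1G53680), a gene of low level, rose in *tt19-8*. *GSTU28* stood at 1.01, 1.23 and 1.46 CPM in replicates 1, 2 and 3 of Col-0 and at 3.83, 3.98 and 1.99 in *tt19-8*. The groups did not overlap, and the log2 fold change was 1.41 ± 0.31 (adjusted p 0.00542). It stood at 1.92, 1.74 and 1.27 CPM in S2, 0.944, 1.02 and 1.76 in S7 and 1.34, 1.002 and 0.631 in S8, and at 1.55 to 3.61 in S1, S4 and S5. Relative to *tt19-8* it fell in S2 (log2 fold change -0.996 ± 0.31, adjusted p 0.0263), in S7 (log2 fold change -1.36 ± 0.31, adjusted p 0.00179) and in S8 (log2 fold change -1.73 ± 0.33, adjusted p 0.00054). The call in S2 was lost in 5 of 12 alternatives (with its 6 libraries alone, without S2 replicate 2 or 3, without *tt19-8* replicate 1 or 2), and over all 12 the log2 fold change ran from -1.25 to -0.83 with adjusted p up to 0.134. Replicate 3 of *tt19-8* was the lowest of its 3 libraries for this gene, and without it the rise over Col-0 was 1.67 (adjusted p 0.00231).

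*GSTU1* to *GSTU7* lie close together on chromosome 2, and each of *GSTU1* to *GSTU6* has 81.6% to 85.5% identity in coding sequence with its closest relative among them. No 100-base window of the exons of these genes was found elsewhere in the genome. *GSTU2*, *GSTU7* and *GSTU6* overlap a neighbouring gene model over 75.5%, 66.0% and 24.8% of their length, and since the sources used here do not say how strand and overlaps were counted, reads there cannot be assigned with certainty. In S7, *GSTU1*, *GSTU3* and *GSTU7* were called lower than in *tt19-8* and none of the 7 was called higher.

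*GSTU2* (AT2G29480) stood at 6.44, 7.99 and 6.08 CPM in Col-0, 5.12, 6.22 and 5.18 in *tt19-8*, 10.2, 10.5 and 10.2 in S1, 11.4, 13.1 and 12.1 in S4, 10.4, 8.99 and 8.27 in S5, 4.72, 4.29 and 4.25 in S7 and 8.97, 10.98 and 10.3 in S8. Libraries of S1, S4, S5 and S8 all lay above those of *tt19-8*. The rise was 1.15 ± 0.14 (adjusted p 6.18e-06) on the log2 scale in S4, and 0.91, 0.74 and 0.87 in S1, S5 and S8 (adjusted p at most 0.000545). *GSTU1* (AT2G29490), its neighbour, stood at 54.7 to 68.995 CPM in *tt19-8* and was called higher in S4 only, at 85.2 to 85.9 CPM (log2 fold change 0.51 ± 0.10, adjusted p 0.00165), and lower in S7, at 32.3 to 38.7 CPM (log2 fold change -0.75 ± 0.11, adjusted p 1.21e-05).

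*GSTU3* (AT2G29470) stood at 9.28, 9.95 and 8.49 CPM in Col-0, 5.76, 4.58 and 4.87 in *tt19-8*, 8.88, 7.85 and 7.54 in S4, 2.32, 2.81 and 2.61 in S7 and 10.9, 14.2 and 12.1 in S8. It fell in *tt19-8* (log2 fold change -0.87 ± 0.21, adjusted p 0.0089) and further in S7 (log2 fold change -0.97 ± 0.22, adjusted p 0.00164), and it rose in S8 (log2 fold change 1.29 ± 0.21, adjusted p 0.000125), where every library was above those of Col-0. The call of a smaller rise in S4, 0.68 ± 0.21 (adjusted p 0.0267), was lost in 4 of 12 alternatives (without S4 replicate 1 or 2, without *tt19-8* replicate 2 or 3), and over all 12 the log2 fold change ran from 0.60 to 0.78 with adjusted p up to 0.107. Tested directly, S7 was below S8 (log2 fold change -2.26 ± 0.22, adjusted p 9.81e-08).

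*GSTU4* (AT2G29460) and *GSTU5* (AT2G29450), the latter known as auxin-inducible, followed each other in the lines. *GSTU4* stood at 35.6 to 44.2 CPM in Col-0 and 21.8 to 26.8 in *tt19-8*, a fall (log2 fold change -0.69 ± 0.15, adjusted p 0.00531), and rose again in S1 by 0.86, in S2 by 0.63, in S5 by 0.52 and in S8 by 0.96. *GSTU5* stood at 17.6 to 21.5 CPM in *tt19-8* and rose in the same 4 lines, by 1.03 in S1, 0.40 in S2, 0.58 in S5 and 0.87 in S8. The call of *GSTU4* in S5 was lost in 5 of 12 alternatives (with its 6 libraries alone, without S5 replicate 1 or 2, without *tt19-8* replicate 1 or 2), and over all 12 the log2 fold change ran from 0.34 to 0.75 with adjusted p up to 0.15. That of *GSTU5* in S2 was lost in 7 of 12 alternatives (with its 6 libraries alone, without the 3 libraries that stood apart, without S2 replicate 1, 2 or 3, without *tt19-8* replicate 2 or 3), and over all 12 the log2 fold change ran from 0.34 to 0.49 with adjusted p up to 0.108. Neither was called in S4 or S7 against *tt19-8*.

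*GSTU6* (AT2G29440) stood at 7.70, 7.30 and 6.54 CPM in Col-0 and 4.02, 3.73 and 2.59 in *tt19-8*, without overlap, a fall (log2 fold change -1.06 ± 0.26, adjusted p 0.00971). Without *tt19-8* replicate 3 the log2 fold change was -0.89 and not past the threshold (adjusted p 0.0583). In the lines it stood at 1.52 to 6.74 CPM and was not called against *tt19-8* in any. *GSTU7* (AT2G29420) was at 31.3 to 32.3 CPM in Col-0 and at 39.5 to 52.3 in *tt19-8*, a rise (log2 fold change 0.48 ± 0.11, adjusted p 0.00792) whose call was lost without *tt19-8* replicate 3. It rose again in S4 (log2 fold change 0.45 ± 0.11, adjusted p 0.008), a call lost without *tt19-8* replicate 2 (log2 fold change 0.38, adjusted p 0.0554), and fell in S7 (log2 fold change -0.56 ± 0.12, adjusted p 0.000677).

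*GSTU11* (AT1G69930) and *GSTU12* (AT1G69920) are neighbours on chromosome 1 and had the widest range of levels over the genotypes. *GSTU11* stood at 14.7, 13.01 and 8.52 CPM in replicates 1, 2 and 3 of Col-0 and at 4.74, 5.92 and 14.5 in *tt19-8*. The suppressor lines had CPM values of 29.1, 29.5 and 29.7 in S1, 10.4, 10.4 and 19.3 in S2, 12.2, 9.77 and 11.5 in S4, 20.4, 21.4 and 11.6 in S5, 5.67, 5.98 and 2.25 in S7 and 33.7, 39.99 and 60.4 in S8. Replicate 3 was the highest library of *tt19-8*, S2 and S8, the genotypes whose replicate 3 also had the high low-oxygen genes, and S1 and S8 lay above all libraries of *tt19-8*. *GSTU11* rose against *tt19-8* in S1 (log2 fold change 1.82 ± 0.37, adjusted p 0.00081) and in S8 (log2 fold change 2.42 ± 0.38, adjusted p 8.76e-05), the latter 5.35-fold. Without *tt19-8* replicate 3 these log2 fold changes were 2.46 in S1 (adjusted p 8.04e-05) and 3.06 in S8 (adjusted p 1.40e-05). In S5 the rise was 1.09 ± 0.37 (adjusted p 0.0379), with overlap, and without *tt19-8* replicate 3 it was 1.73 (adjusted p 0.00297). This call was lost in 5 of 12 alternatives (with its 6 libraries alone, without S5 replicate 1 or 2, without *tt19-8* replicate 1 or 2), and over all 12 the log2 fold change ran from 0.81 to 1.75 with adjusted p up to 0.156. Tested directly, S7 was below S8 (log2 fold change -3.32 ± 0.40, adjusted p 1.58e-06) and below S5 (log2 fold change -1.99 ± 0.39, adjusted p 0.000327), while S7 was not called against *tt19-8*. The part of the low-oxygen genes in these levels was not tested, here or for *GSTU12* and *GSTU17*. It was also not tested for members such as *GSTU14*, *GSTU26*, *GSTU27* and *GSTU28*, for which replicate 3 was the lowest library of *tt19-8*, S2 and S8.

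*GSTU12* stood at 5.02, 4.69 and 5.86 CPM in replicates 1, 2 and 3 of Col-0 and at 3.83, 3.64 and 12.1 in *tt19-8*. In the lines, it was measured in CPM at 19.5, 23.3 and 21.4 in S1, 2.86, 3.15 and 4.16 in S2, 2.25, 2.40 and 2.02 in S4, 8.24, 9.45 and 4.78 in S5, 1.31, 1.06 and 1.12 in S7 and 12.95, 13.9 and 20.3 in S8. S1 and S8 were high and S4 and S7 low, with no overlap with *tt19-8*, and replicate 3 of *tt19-8* was far above its replicates 1 and 2. Relative to *tt19-8* the log2 fold change was 1.72 ± 0.32 (adjusted p 0.000308) in S1, 1.28 ± 0.32 (adjusted p 0.00517) in S8, -1.54 ± 0.34 (adjusted p 0.00308) in S4 and -2.48 ± 0.37 (adjusted p 2.50e-05) in S7, 5.58-fold lower. The S8 call was lost when its 6 libraries were fitted alone (log2 fold change 1.29, adjusted p 0.0658), and over all 12 alternatives the log2 fold change ran from 0.98 to 2.08. Without *tt19-8* replicate 3, *GSTU12* had log2 fold changes of 2.52 in S1 (adjusted p 6.71e-07), 2.08 in S8 (adjusted p 5.90e-06), -0.74 in S4 (adjusted p 0.0289) and -1.68 in S7 (adjusted p 3.74e-05). Among lines tested directly, S4 was below S8 (log2 fold change -2.82 ± 0.34, adjusted p 2.65e-06), S2 below S8 (log2 fold change -2.21 ± 0.33, adjusted p 0.000149) and S7 below S8 (log2 fold change -3.76 ± 0.37, adjusted p 1.20e-07).

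*GSTU8* (AT3G09270), *GSTU9* (AT5G62480) and *GSTU10* (AT1G74590) have no other member as a neighbour and were all called lower in S7. *GSTU8* stood at 33.5 to 43.4 CPM in *tt19-8* and at 15.5 to 24.4 in S7, a fall (log2 fold change -1.06 ± 0.17, adjusted p 4.51e-05). In S5 it stood at 60.1 to 78.4 CPM, a rise (log2 fold change 0.80 ± 0.16, adjusted p 0.00126). *GSTU9* rose in S5, where it stood at 73.4 to 89.2 CPM (log2 fold change 0.64 ± 0.14, adjusted p 0.00199), and in S4, where it stood at 76.2 to 79.2 CPM (log2 fold change 0.57 ± 0.14, adjusted p 0.00636), and was lower in S8 and S7 with log2 fold changes of -0.47 and -0.44. The call in S8 was lost in 3 of 12 alternatives (without S8 replicate 3, without *tt19-8* replicate 1 or 2), and over all 12 the log2 fold change ran from -0.56 to -0.42 with adjusted p up to 0.0628. That in S7 was lost in 4 of 12 alternatives (with its 6 libraries alone, without S7 replicate 3, without *tt19-8* replicate 1 or 2), and over all 12 the log2 fold change ran from -0.53 to -0.29 with adjusted p up to 0.109, the value nearest 0 being that without S7 replicate 3. *GSTU10* stood at 19.8 to 21.95 CPM in *tt19-8*, 10.1 to 13.9 in S7 (log2 fold change -0.82 ± 0.10, adjusted p 1.79e-06) and 27.8 to 29.3 in S1 (log2 fold change 0.45 ± 0.10, adjusted p 0.00112). *GSTU8* was also lower in *tt19-8* than in Col-0 (log2 fold change -0.61 ± 0.16, adjusted p 0.0166), a call lost in 2 of 12 alternatives (without Col-0 replicate 2, without *tt19-8* replicate 3), and over all 12 the log2 fold change ran from -0.69 to -0.51 with adjusted p up to 0.0885. Of the length of *GSTU10*, 22.6% is shared with a neighbouring gene model.

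*GSTU17* (AT1G10370, also known as ERD9), a negative regulator of drought and abscisic acid responses, was the tau gene with the largest rise in S7. *GSTU17* stood at 61.5, 56.05 and 55.4 CPM in replicates 1, 2 and 3 of Col-0 and at 44.8, 42.5 and 120.4 in *tt19-8*. Levels in CPM were 45.5, 46.5 and 43.3 in S1, 78.8, 73.4 and 83.7 in S2, 88.4, 92.4 and 92.7 in S4, 69.97, 76.2 and 53.8 in S5, 159.5, 177 and 119.5 in S7 and 86.3, 97.8 and 144 in S8. Replicate 3 of *tt19-8* was at the level of S7, so that the groups overlapped, whereas replicates 1 and 2 lay below every library of S7. The log2 fold change of S7 against *tt19-8* was 1.13 ± 0.27 (adjusted p 0.00218), and without *tt19-8* replicate 3 it was 1.80 (adjusted p 2.71e-07). Against Col-0 it was called higher, with log2 fold changes of 0.66 in S4, of 1.40 in S7 and of 0.92 in S8 (adjusted p at most 0.0493). The S4 call was lost in 8 of 12 alternatives (with DESeq2, with replicate block, without Col-0 replicate 1, 2 or 3, without S4 replicate 1, 2 or 3), and over all 12 the log2 fold change ran from 0.63 to 0.71 with adjusted p up to 0.114. The S8 call was lost without S8 replicate 3 (log2 fold change 0.68, adjusted p 0.0964).

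*GSTU18* (AT1G10360), the neighbour of *GSTU17*, stood at 1.14 to 3.74 CPM over all libraries and was called lower than *tt19-8* in S1, S2, S4 and S8, with log2 fold changes of -0.96, -0.82, -0.94 and -0.80. Without S1 replicate 3 the S1 call was lost, and those in S2, S4 and S8 were each lost in 4 or 5 of 12 alternatives, among them those without *tt19-8* replicate 1 or 2, with adjusted p up to 0.161. *GSTU16* (AT1G59700) stood at 18.4 to 19.5 CPM in Col-0 and 14.4 to 15.5 in *tt19-8*, a fall (log2 fold change -0.34 ± 0.10, adjusted p 0.0212) whose call was lost in 4 of 12 alternatives (without Col-0 replicate 1 or 2, without *tt19-8* replicate 1 or 3), and over all 12 the log2 fold change ran from -0.38 to -0.31 with adjusted p up to 0.0791. It was higher in S2 (log2 fold change 0.61 ± 0.10, adjusted p 0.000138) and in S8 (log2 fold change 0.57 ± 0.10, adjusted p 0.000177). It was also called higher in S4 and in S5, by 0.33 on the log2 scale in each. The S4 call was lost without S4 replicate 1 or *tt19-8* replicate 1 and the S5 call without S5 replicate 2 or with its 6 libraries alone, with adjusted p up to 0.114.

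*GSTU19* to *GSTU23* form a further group on chromosome 1, in which *GSTU19* is known for induction by herbicide safeners and *GSTU20* for binding the jasmonate-conjugating enzyme FIN219. *GSTU19* stood at 475, 462 and 439 CPM in replicates 1, 2 and 3 of Col-0 and at 554, 550.1 and 717 in *tt19-8*. CPM values in the lines were 499, 512 and 508 in S1, 631, 646 and 713 in S2, 784, 892 and 882 in S4, 678, 747 and 859 in S5, 632, 748 and 602 in S7 and 630.3, 639.8 and 689.5 in S8. Col-0 had the lowest 3 values of *GSTU19* and S4 the highest mean. Its rise in *tt19-8* over Col-0 was 0.41 ± 0.10 (adjusted p 0.0125), which was 0.27 and not past the threshold (adjusted p 0.0965) without *tt19-8* replicate 3. Against *tt19-8* it was higher in S4 (log2 fold change 0.49 ± 0.10, adjusted p 0.00225) and in S5 (log2 fold change 0.33 ± 0.10, adjusted p 0.0249), the latter with overlap and a call that was lost in 5 of 12 alternatives (with its 6 libraries alone, without S5 replicate 2 or 3, without *tt19-8* replicate 1 or 2), and over all 12 the log2 fold change ran from 0.23 to 0.48 with adjusted p up to 0.144. Against Col-0, S2, S4, S5, S7 and S8 were called higher, by 0.53, 0.90, 0.73, 0.53 and 0.51.

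*GSTU20* (AT1G78370) stood at 114, 105 and 92.8 CPM in replicates 1, 2 and 3 of Col-0 and at 55.7, 55.9 and 59.1 in *tt19-8*. It stood at 28.6, 33.5 and 28.7 CPM in S1, at 98.01, 121 and 125 in S7 and at 27.7 to 69.3 in the other lines. The gene lay lower in *tt19-8* (log2 fold change -0.87 ± 0.20, adjusted p 0.00704) and lower again in S1 (log2 fold change -0.91 ± 0.20 against *tt19-8*, adjusted p 0.00156), while S7 was at the Col-0 level (log2 fold change 1.01 ± 0.20 against *tt19-8*, adjusted p 0.000495), without overlap in each of these 3 comparisons. Tested directly, S7 was above S5 (log2 fold change 1.54 ± 0.20, adjusted p 4.04e-06) and above S8 (log2 fold change 0.99 ± 0.20, adjusted p 0.00051).

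*GSTU22* (AT1G78340) stood at 4.28 to 5.75 CPM in Col-0, 6.81 to 10.02 in *tt19-8*, 3.08, 3.81 and 3.19 in S8 and 4.81 to 13.8 in the other lines. It fell in S8 (log2 fold change -1.29 ± 0.20, adjusted p 7.59e-05) and had risen in *tt19-8* against Col-0 (log2 fold change 0.72 ± 0.19, adjusted p 0.0157), a call lost in 3 of 12 alternatives (without the 3 libraries that stood apart, without Col-0 replicate 1, without *tt19-8* replicate 3), and over all 12 the log2 fold change ran from 0.54 to 0.83 with adjusted p up to 0.101. *GSTU23* (AT1G78320) also fell in S8, where it stood at 0.535, 0.193 and 0.662 CPM against 1.49, 2.12 and 1.28 in *tt19-8* (log2 fold change -1.79 ± 0.36, adjusted p 0.000892), and in the other genotypes it spanned 0.707 to 2.61 CPM. All 3 libraries of S8 were below all libraries of the other 7 genotypes for *GSTU23*. The direct tests gave lower *GSTU23* in S8 than in each of S1, S2, S4, S5 and S7, with log2 fold changes of those lines over S8 of 1.48, 1.53, 1.37, 1.77 and 2.25.

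**Figure D4:**
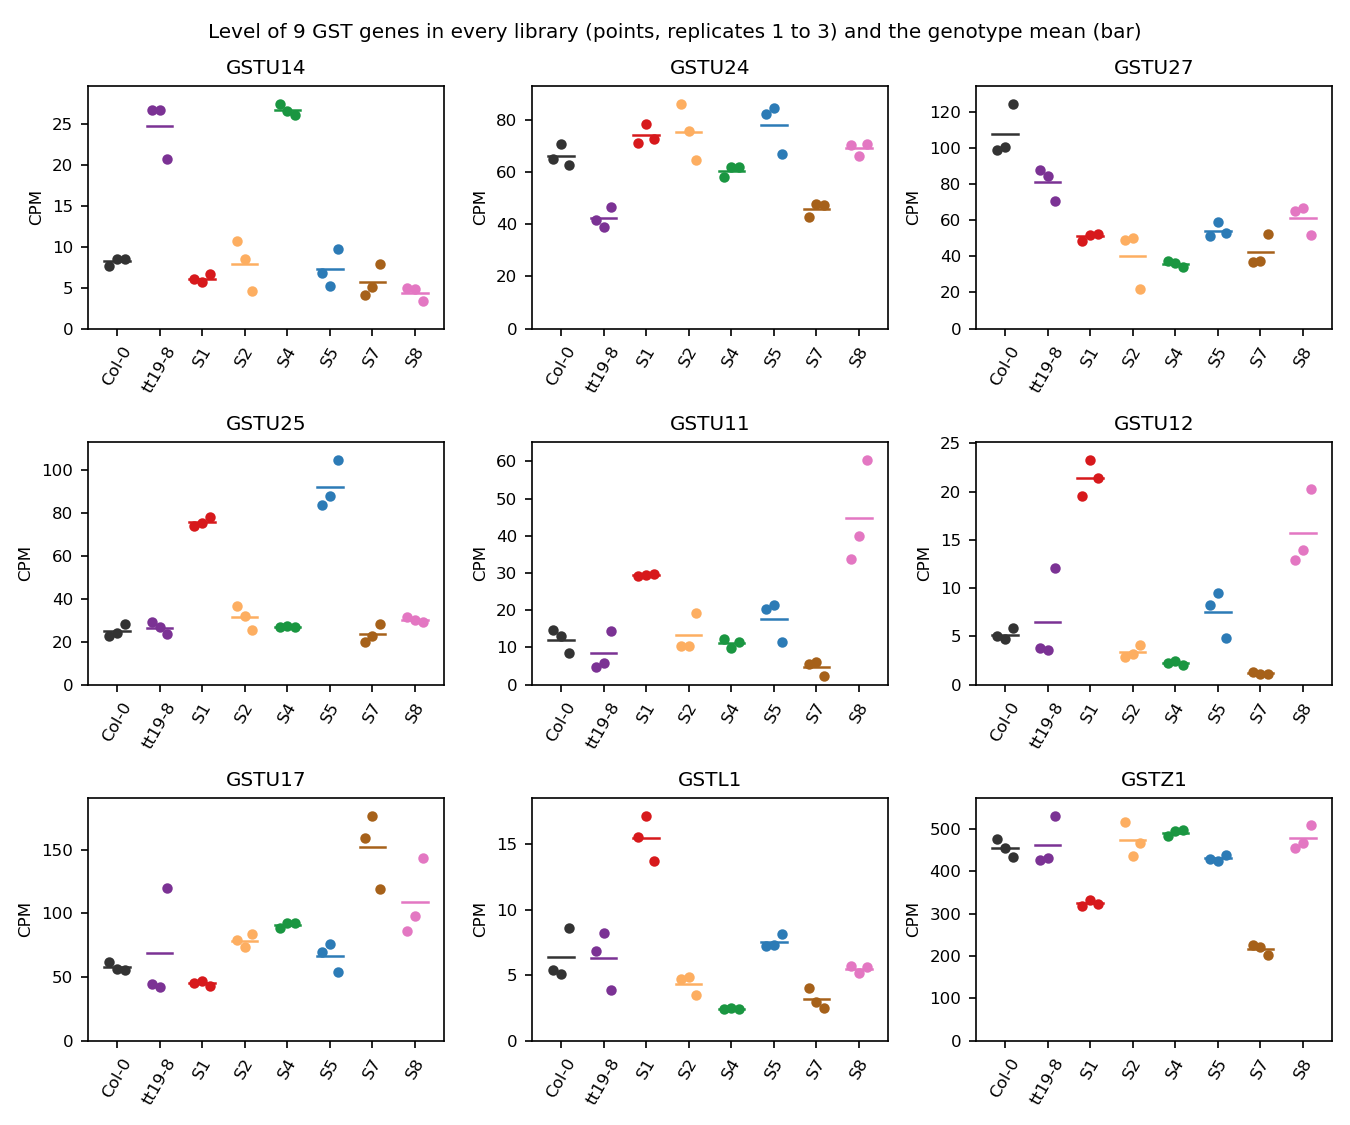
Level (CPM, axis from 0) of *GSTU14*, *GSTU24*, *GSTU27*, *GSTU25*, *GSTU11*, *GSTU12*, *GSTU17*, *GSTL1* and *GSTZ1* in each of the 24 libraries, with a bar at each genotype mean (n = 3). *GSTU14* is at 20.7 to 27.4 CPM in *tt19-8* and S4 and at 3.34 to 10.7 elsewhere, and *GSTZ1* is lowest in S7.

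Of the lambda genes, *GSTL1* (AT5G02780) varied most. *GSTL1* stood at 5.39, 5.08 and 8.59 CPM in replicates 1, 2 and 3 of Col-0 and at 6.86, 8.20 and 3.84 in *tt19-8*. The suppressor lines had CPM values of 15.5, 17.1 and 13.7 in S1, 4.69, 4.83 and 3.50 in S2, 2.37, 2.51 and 2.42 in S4, 7.24, 7.30 and 8.13 in S5, 3.99, 2.96 and 2.48 in S7 and 5.66, 5.16 and 5.62 in S8. S1 was high and S4 low, both without overlap with *tt19-8*, and S7 overlapped with replicate 3 of *tt19-8*. The log2 fold change against *tt19-8* was 1.29 ± 0.22 (adjusted p 0.000151) in S1, -1.37 ± 0.23 (adjusted p 0.000324) in S4 and -1.02 ± 0.23 (adjusted p 0.00177) in S7. S1 was above S8 (log2 fold change 1.50 ± 0.23, adjusted p 4.79e-05).

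*GSTL3*, the abundant lambda gene next to *GSTL1*, stood at 234, 225 and 222 CPM in Col-0, 258, 264 and 283 in *tt19-8*, 166, 190.2 and 174 in S1 and 194, 231 and 149.9 in S7, and at 219.8 to 296 in the other lines. It fell in S1 (log2 fold change -0.60 ± 0.11, adjusted p 0.000351) and in S7 (log2 fold change -0.49 ± 0.11, adjusted p 0.00199), with no overlap with *tt19-8*. *GSTL2* (AT3G55040), whose product is known from plastids, stood at 13.1, 12.5 and 10.7 CPM in *tt19-8*, 8.17, 9.72 and 8.42 in S4 and 17.5, 17.9 and 14.97 in S7, and at 9.97 to 16.8 in the other genotypes. It was lower in S4 (log2 fold change -0.47 ± 0.12, adjusted p 0.0116), and higher in S7 (log2 fold change 0.47 ± 0.12, adjusted p 0.00505). The S4 call was lost in 2 of 12 alternatives (without S4 replicate 1, without *tt19-8* replicate 1), and over all 12 the log2 fold change ran from -0.55 to -0.41 with adjusted p up to 0.0648. In S7 the plastid member was thus higher than in *tt19-8* and the other lambda genes lower.

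Both zeta genes had their lowest genotype mean in S7. *GSTZ1* stood at 476, 455 and 435 CPM in replicates 1, 2 and 3 of Col-0 and at 427, 431 and 531 in *tt19-8*. In the lines, it was measured in CPM at 317, 333 and 323 in S1, 517, 437 and 467 in S2, 484, 495 and 497 in S4, 431, 426 and 439 in S5, 225, 221 and 202 in S7 and 456, 468 and 510.2 in S8. All libraries of S7 lay below all others, those of S1 came next, and the libraries of the remaining 6 genotypes ranged from 426 to 531 CPM. The log2 fold change against *tt19-8* was -1.10 ± 0.08 (adjusted p 3.38e-09) in S7, 2.15-fold lower, and -0.51 ± 0.08 (adjusted p 5.33e-05) in S1. S7 was below S8 (log2 fold change -1.15 ± 0.08, adjusted p 1.58e-09). *GSTZ2* (AT2G02380), the close copy next to it (83.6% identity in coding sequence), stood at 3.88, 3.64 and 4.69 CPM in *tt19-8* and 2.01, 2.43 and 1.69 in S7, without overlap, and at 1.45 to 6.40 in the other genotypes, and fell in S7 (log2 fold change -1.01 ± 0.29, adjusted p 0.00853).

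GSTZ1 works in tyrosine breakdown after the aminotransferase TAT7, 4-hydroxyphenylpyruvate dioxygenase (HPD) and homogentisate dioxygenase (HGO) and before fumarylacetoacetase (FAH). Of these 4 genes, 1 was called higher and none lower in S7, *TAT7* with 0.48 ± 0.12 (adjusted p 0.00328). In S1, 3 were called lower, *TAT7* with -0.72, *HPD* with -0.57 and *HGO* with -0.36, with a median over the 4 of -0.46. Of all genes, 37.3% were called in S7 and 34% in S1.

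The 3 theta genes, which stand together on chromosome 5, changed least. *GSTT1* stood at 139.8, 144 and 133 CPM in Col-0, 128, 134 and 143 in *tt19-8*, 107, 108 and 109 in S1 and 102, 112 and 84.7 in S7, and at 115 to 144 in the other lines. It fell in S1 (log2 fold change -0.32 ± 0.08, adjusted p 0.00428) and in S7 (log2 fold change -0.45 ± 0.08, adjusted p 0.000237). *GSTT2* (AT5G41240) stood at 18.7, 21.4 and 22.6 CPM in *tt19-8*, 15.5, 15.9 and 17.1 in S5 and 15.6, 15.4 and 16.2 in S8, and was lower in S5 (log2 fold change -0.37 ± 0.10, adjusted p 0.00986) and in S8 (log2 fold change -0.41 ± 0.10, adjusted p 0.00453). The S5 call was lost in 4 of 12 alternatives (with its 6 libraries alone, without the 3 libraries that stood apart, without S5 replicate 1, without *tt19-8* replicate 3), and over all 12 the log2 fold change ran from -0.44 to -0.30 with adjusted p up to 0.0512. *GSTT3* (AT5G41220) stood at 28.6, 27.6 and 27.1 CPM in *tt19-8* and 37.7, 33.3 and 35.2 in S7, and was higher in S7 (log2 fold change 0.35 ± 0.08, adjusted p 0.0016). *GSTT2* and *GSTT3* share 91.0% of their coding sequence, and 2.34% and 1.93% of their 100-base exon windows also occur elsewhere, so that the counts of this part may be shared between copies. None of the lambda, zeta or theta genes was called between *tt19-8* and Col-0, where 13.6% of all genes were, which for so few genes is near the background.

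**Figure D5:**
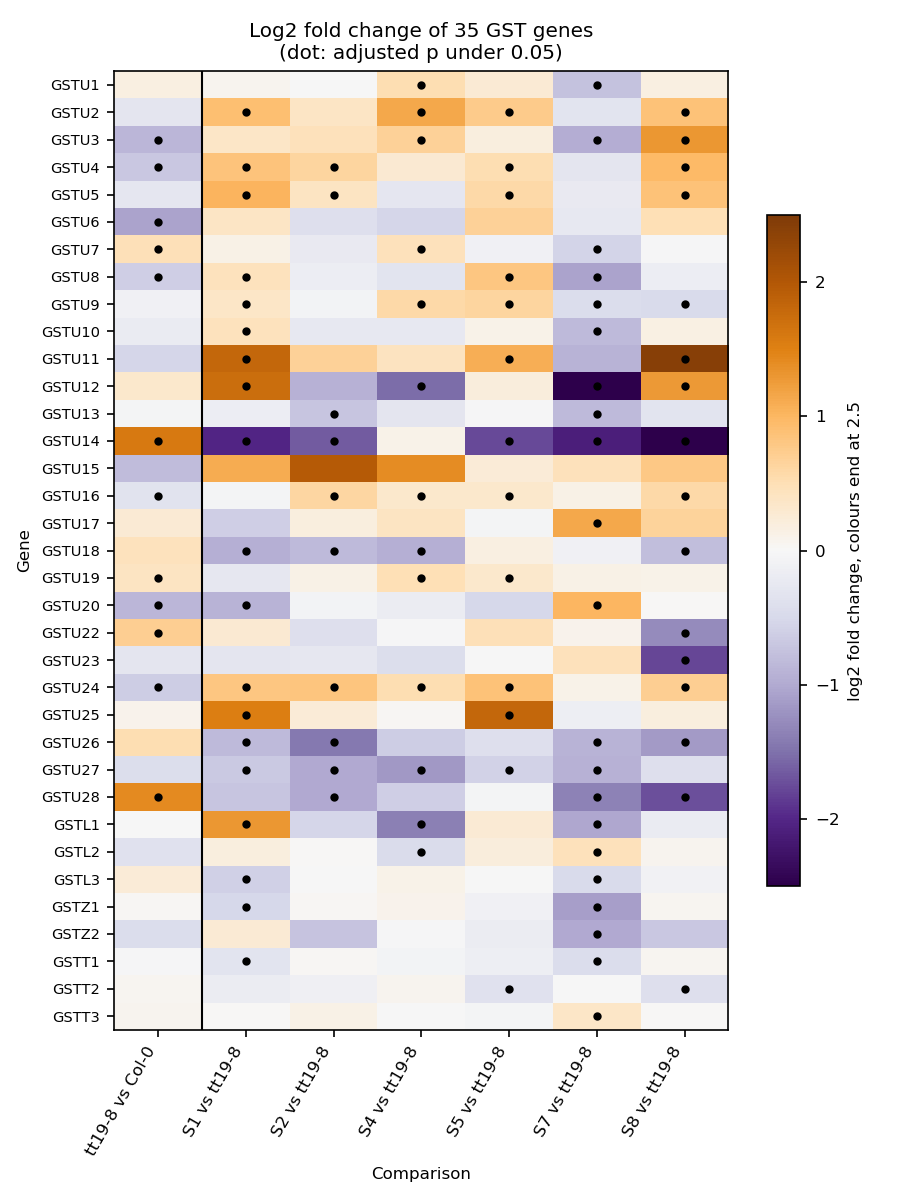
Log2 fold change of the 35 GST genes tested in *tt19-8* against Col-0 (left of the line) and in each suppressor line against *tt19-8*, by colour, with a dot where the adjusted p was under 0.05. *GSTU14* is higher in *tt19-8* (1.58) and lower in 5 lines, and the S7 column holds 17 lower calls, from the tau, lambda, zeta and theta classes.

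Each line also differed from Col-0. Of the 35 genes, 22 differed in S7 (4 higher, 18 lower, beside 42.7% of all genes called and 20.4% called lower), 21 in S4 (10 higher, 11 lower, beside 42.9%) and 18 in S8 (8 higher, 10 lower, beside 29.2%). There were 16 in S1 (9 higher, 7 lower, beside 36.4%), 12 in S5 (8 higher, 4 lower, beside 25.2%) and 11 in S2 (2 higher, 9 lower, beside 27.3%). The count in S1 was 27 when the 6 libraries compared were fitted alone. Of the 12 genes called between *tt19-8* and Col-0, *GSTU14* and *GSTU24* were called in the opposite direction in 5 lines each, *GSTU4* and *GSTU16* in 4 each, *GSTU28* in 3, *GSTU3* and *GSTU8* in 2 each, *GSTU7*, *GSTU20* and *GSTU22* in 1 each, and *GSTU6* and *GSTU19* in none. These comparisons share the *tt19-8* libraries, which by itself favours opposite calls. The share of such calls among all genes called in *tt19-8* was not counted. The tally is thus not read as a trait of GST genes.

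The lines were then compared directly. Of the 7 pairs tested, those with S7, the *DCL4* line, had the most calls: 26 members (6 higher, 20 lower, beside 39.9% of all genes) were called against S8, an *RDR6* line, and 25 (4 higher, 21 lower, beside 45.2% of all genes) against S5, the *SGS3* line. Lower calls made up 19.4% of all genes in the first and 22.7% in the second. Members lower in S7 than in S8 and S5 included, with log2 fold changes in that order, *GSTU1* (-0.92 and -1.02), *GSTU2* (-1.19 and -1.06) and *GSTU10* (-0.96 and -0.94). Members higher in S7 than in both were *GSTU20*, *GSTT2* (0.39 and 0.35) and *GSTT3* (0.33 and 0.40). The *GSTT2* call against S5 was lost in 1 of 12 alternatives (without S7 replicate 1), and over all 12 the log2 fold change ran from 0.26 to 0.41 with adjusted p up to 0.0584. Both comparisons share the S7 libraries. In these libraries the leaf markers summed to 363 to 466 CPM, against 186 to 235 in S5 and 165 to 252 in S8. The root markers summed to 16.5 to 26.4 CPM in S7, 43.7 to 46.4 in S5 and 12.9 to 27.01 in S8, and their part in the differences was not tested.

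S5 and S8 differed in 11 members (8 higher, 3 lower, beside 14.9% of all genes), among them *GSTU22*, *GSTU28* and *GSTU9*, all higher in S5, with log2 fold changes of 1.76, 1.68 and 1.12. The missense line S4 differed from the nonsense lines S2 and S8 in 13 (8 higher, 5 lower, beside 28.6% of all genes) and 19 (9 higher, 10 lower, beside 35.6% of all genes). In S4, *GSTU1*, *GSTU7*, *GSTU9*, *GSTU14* and *GSTU19* were higher than in both (for *GSTU1* log2 fold changes of 0.52 and 0.34, for *GSTU7* of 0.68 and 0.47), and *GSTU5*, *GSTL1* and *GSTL2* lower than in both (for *GSTU5* log2 fold changes of -0.69 and -1.16, for *GSTL1* of -0.83 and -1.17). The *GSTU1* call against S8 was lost in 1 of 12 alternatives (without S8 replicate 1), and over all 12 the log2 fold change ran from 0.23 to 0.41 with adjusted p up to 0.101. Against S2 the *GSTU19* call was lost without S2 replicate 1 or S4 replicate 2 (adjusted p up to 0.0551), and the *GSTL2* call without S2 replicate 2 or with its 6 libraries alone (adjusted p up to 0.0793). The nonsense lines also differed from each other, S1 from S8 in 17 (9 higher, 8 lower, beside 28% of all genes) and S2 from S8 in 10 (3 higher, 7 lower, beside 10.7% of all genes). The count for S2 against S8 was 3 when the 6 libraries compared were fitted alone and 5 without S8 replicate 2. In both, *GSTU23* was lower in S8, and *GSTU3* was higher in S8, with log2 fold changes of -0.92 for S1 over S8 and -0.84 for S2 over S8. For S2 the *GSTU23* call was lost in 1 of 12 alternatives (with its 6 libraries alone), and over all 12 the log2 fold change ran from 1.19 to 2.17 with adjusted p up to 0.19. The *GSTU3* call was lost in 1 of 12 alternatives (without S8 replicate 2), and over all 12 the log2 fold change ran from -0.92 to -0.73 with adjusted p up to 0.053. The low-oxygen genes were summed at 8022 to 8398 CPM in S4, 2202 to 5289.5 in S2 and 3543 to 8874 in S8. Leaf markers summed to 129 to 144 CPM in S4, 218 to 284 in S2 and 165 to 252 in S8, and root markers to 46.7 to 50.2 in S4, 17.6 to 41.4 in S2 and 12.9 to 27.01 in S8. In S4 against S8, 3 of the 5 leaf genes were called lower and all 3 root genes higher, and the part of these genes in the differences was not tested.

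Genes that work beside the GSTs were examined by list, and those named were chosen after their values were seen. Of 12 tested genes for glutathione synthesis, reduction and turnover, the calls against *tt19-8* were 2 higher and 6 lower in S1, 1 higher and 3 lower in S2, 1 higher and 4 lower in S4, 2 higher and 3 lower in S5, 0 higher and 5 lower in S7 and 4 higher and 0 lower in S8, and 1 was higher and 1 lower in *tt19-8* against Col-0. Of all genes, 34% were called in S1, 37.3% in S7 and 25.6% in S8, with 19.1% for S2, 18.7% for S4, 24.7% for S5 and 13.6% for *tt19-8*. Of the 12 genes, 8 were called in S1, 5 in each of S4, S5 and S7 and 4 in each of S2 and S8. The counts in S7 and in *tt19-8* were near the background, and those in the other lines lay above it. Whether 12 genes can show such a difference was not tested. The synthesis genes *GSH1* (AT4G23100, glutamate-cysteine ligase) and *GSH2* (AT5G27380, glutathione synthetase) rose in S8, with log2 fold changes of 0.34 ± 0.07 (adjusted p 0.000763) and 0.51 ± 0.07 (adjusted p 2.53e-05), and fell in S1, with log2 fold changes of -0.34 and -0.23, and in S7, with -0.24 and -0.27. *GGT1* (AT4G39640), an apoplastic glutathione-degrading transpeptidase, rose in S1, S5 and S8, by 1.57, 0.90 and 1.66 on the log2 scale, and fell in S4 and S7, with log2 fold changes of -0.65 and -1.44. S1, S5 and S8 were also the lines in which *GSTU11* was called higher, in S5 with overlap, but *GSTU11* was not called in S4 or S7. This match was seen after the values were known and was not tested.

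Among 3 dehydroascorbate reductase genes, which are GST relatives, *DHAR1* (AT1G19570) fell in all 6 lines, standing at 652 to 731 CPM in *tt19-8* and at 312 to 597 in the lines, with log2 fold changes between -1.11 in S1 and -0.32 in S7 (adjusted p at most 0.0189). *DHAR2* (AT1G75270) rose in S5 (log2 fold change 0.28 ± 0.08, adjusted p 0.0177) and in S8 (log2 fold change 0.31 ± 0.08, adjusted p 0.009), and *DHAR3* (AT5G16710) was called in no line against *tt19-8*. Among 3 genes for ABCC pumps, which carry glutathione conjugates and anthocyanins into the vacuole, *ABCC2* (AT2G34660) rose in all 6 lines, standing at 187 to 192 CPM in *tt19-8* and at 262 to 443 in the lines, with log2 fold changes that ran from 0.56 in S1 to 1.08 in S7 (adjusted p at most 4.08e-05). *ABCC1* was called higher in S1, by 0.37, and *ABCC3* in S5 and S8, by 0.49 and 0.41, on the log2 scale. *DHAR1* and *ABCC2* were called in 1 direction in every line, and no GST of the 4 classes was. Of all genes, 1.95% were called higher and 2.12% lower than in *tt19-8* in at least 5 of the 6 lines. The shares for all 6 lines, which can be no larger, are not given here. At such shares the absence of such a GST is near the background, and the contrast is not read as a trait of GST genes. The paper had already listed *ABCC2* among the genes changed in all the suppressor lines it compared.

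Of 13 genes of the detoxification response that depends on TGA factors and the scaffold protein SCL14, the calls against *tt19-8* were 6 higher and 1 lower in S1, 2 higher and 0 lower in S2, 5 higher and 0 lower in S4, 3 higher and 0 lower in S5, 1 higher and 2 lower in S7 and 1 higher and 1 lower in S8, and 2 were higher in *tt19-8* against Col-0. Beside the shares of all genes given above, the counts in S2, S5, S7 and S8 were at or under the background. In S1 and S5, *OPR1* (AT1G76680, an oxophytodienoate reductase) stood at 64.9 to 67.7 and 61.2 to 65.2 CPM, against 17.7 to 38.8 in *tt19-8*, and rose in S1 (log2 fold change 1.14 ± 0.21, adjusted p 0.000318) and in S5 (log2 fold change 1.07 ± 0.21, adjusted p 0.0011). The transporter gene *DTX3* rose in S1 (log2 fold change 1.18 ± 0.24, adjusted p 0.000654) and in S5 (log2 fold change 1.02 ± 0.24, adjusted p 0.00374), and neither was called in S2, S4, S7 or S8. *CYP81D11*, a xenobiotic-inducible cytochrome P450 gene, rose in *tt19-8* (log2 fold change 1.49 ± 0.14, adjusted p 2.24e-06) and in S1, S4 and S5, by 1.40, 1.05 and 0.79, and fell in S7 and S8, with log2 fold changes of -0.49 and -1.19. Beside *OPR1*, *DTX3* and *CYP81D11*, no gene of the 13 was called in S5. In S1 the seed-storage and late-embryo genes were also high, at 5404 to 5693 CPM in sum, against 1138 to 2342 in S5 and 1345 to 1579 in *tt19-8*, and their part in these values was not tested.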

How the data were processed

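Whole seedlings of 8 genotypes were sequenced by RNA-seq, with 3 libraries per genotype. The authors checked the paired-end reads with FastQC (0.11.5), aligned them with HISAT2 to TAIR10, counted them per gene with FeatureCounts and deposited raw counts, 1 file per library. Settings for strand, multiple alignments and read pairs are not given in the sources used here, so overlapping genes cannot be told apart by strand. Counts were fitted with edgeR (4.0.16, R 4.3.3) by the quasi-likelihood method on all 24 libraries, with TMM scaling, filterByExpr and 1 mean per genotype, leaving 16 residual degrees of freedom. The tests were two-sided F tests, adjusted by Benjamini-Hochberg over the 22089 genes kept, and a gene was called at an adjusted p under 0.05. CPM values are on the TMM scale, and CPM per kb were divided by exon length. No group was split by any value.

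The script was tested on simulated data before use. Alternatives were DESeq2 (1.42.0), its size factors in edgeR, no filter, only the 6 libraries compared, the replicate number as a block, each library left out in turn, and a threshold of 0.01. Leaving out replicate 3 of tt19-8, S2 and S8 together was among them. Replicates were separate libraries: over 24 pairs of the same genotype, the median chi-square per gene was 3.35 to 25.7 times that of sampling noise. For S2 and tt19-8 the deviations of the same-numbered libraries had correlations of 0.118, 0.102 and 0.229, and no other comparison had all 3 above 0.1. For S8 and tt19-8 they were 0.0796, 0.0778 and 0.266. Replicate 3 of these 3 genotypes stood apart, and its part in the correlations was not tested. The values given were fitted without pairing, also for S2, and the replicate block was run as an alternative.

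The members and lists were chosen with earlier results of these data known. Values by library were given for up to 4 called members with the largest change in tt19-8 against Col-0 and in each line against tt19-8, for members called in the same direction in at least 5 lines, for the 3 highest levels per kb and for the called lambda, zeta and theta genes. For several of these, such as *GSTU2*, *GSTU3*, *GSTL2* and the theta genes, some genotypes were given as a range or left out. Other members were given by range, and some in full, after their values were seen. Sequences, positions and identities were read from RefSeq TAIR10.1, whose bases matched at 6 of 6 positions tested on the TAIR10 coordinates of the study.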

Additional observations from a re-analysis of the deposited data

Results flagged for a closer look

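Differences were flagged where 2 lines were called in opposite directions against tt19-8 and also differed in the direct test between them (edgeR quasi-likelihood, Benjamini-Hochberg over 22089 genes). Among the 7 pairs of lines compared, 8 differences in 4 members met this rule. The direct value is the difference of the 2 values against tt19-8, so it is no separate support for the opposite calls. The share of such differences over all genes was not counted. Of all genes, 18.7% to 37.3% were called per line against tt19-8 and 10.7% to 45.2% per pair of lines. The count of 8 is thus not read as a trait of GST genes. *GSTU12* fell in S4 and S7 and rose in S8, and its log2 fold change was -2.82 for S4 over S8 and -3.76 for S7 over S8. *GSTU3* fell in S7 and rose in S8, with -2.26 for S7 over S8. *GSTU8* fell in S7 and rose in S5, with -1.86 for S7 over S5. *GSTU9* rose in S1, S4 and S5 and fell in S7 and S8, with 0.84 for S1, 1.04 for S4 and 1.12 for S5 over S8 and -1.08 for S7 over S5. The *GSTU12* call in S8 against tt19-8 was lost with its 6 libraries fitted alone (adjusted p 0.0658). Single calls of *GSTU9* against tt19-8 in S1, S7 and S8 were lost in 5, 4 and 3 of 12 alternatives. Groups of 3 libraries were too small to be screened for a single outlying library.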

How the results depend on the processing

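Of the 290 alternative counts of called GST genes over 21 tests, 279 stayed within 1.5 times the count given. With a threshold of 0.01, the count was 5 for S2 against S8, 7 for S4 against S2, 7 for S5 against S8 and 8 for S5 against tt19-8. With the 6 libraries compared fitted alone, it was 27 for S1 against Col-0, 3 for S2 against S8 and 6 for S2 against tt19-8. Without replicate 3 of tt19-8, S2 and S8 it was 21 for S4 against tt19-8. Leaving out 1 library at a time gave 5 (without S8 replicate 2) to 11 for S2 against S8, 8 (without S5 replicate 2) to 16 for S5 against tt19-8, and 6 (without tt19-8 replicate 3) to 12 for tt19-8 against Col-0. The cause was not tested.

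Of 3936 alternative values of single genes, 3661 kept their direction and side of the threshold, 273 lost the call, 2 gained it and none reversed. Both gains were of *GSTU27* in S8 against tt19-8, -0.40 (adjusted p 0.0473) with its 6 libraries fitted alone and -0.38 (adjusted p 0.0386) without the 3 libraries that stood apart. With the replicate block, S2 against tt19-8 had 11 called GST genes in place of 10, and no count moved by over 1.5 times. In the other comparisons not all 3 correlations of same-numbered libraries were above 0.1. There the replicate block gave 21 for S7 and 16 for S8 against tt19-8, as without it.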
